A study of Mus musculus with 6 samples.

Results

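The genes described here serve inhibitory signalling by GABA and glycine. They are the GABA-making enzymes Gad1 and Gad2, the vesicular carrier Slc32a1, the glycine transporters Slc6a5 and Slc6a9, the glycine receptor subunits Glra1 and Glrb, and the GABA-B receptor subunits Gabbr1 and Gabbr2. They were chosen by gene symbol, 9 of the 24411 genes in the count tables, and all 9 had enough reads to be tested. The libraries are bulk RNA-seq of mouse tissue at postnatal day 18, in 2 groups of 3: wild type (WT) and animals without a large enhancer of Atoh7 (labelled Atoh7 Large Enhancer KO, here KO). Atoh7 encodes a proneural basic helix-loop-helix factor best known for the making of retinal ganglion cells. The labels give no strain, sex, litter or bounds of the deletion, and though the replicates are called independent, nothing ties each to an animal, so p-values measure the spread between these samples. The source and tissue fields of the labels read retina for all 6 libraries, while the protocol and the series' own design text read cerebellum.

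In an inhibitory neuron, glutamate decarboxylase makes GABA from glutamate, and the vesicular carrier loads GABA or glycine into synaptic vesicles. Glycine is taken back into glycinergic terminals by the transporter GlyT2 and into glia by GlyT1. GABA then acts on fast chloride channels and on the slower G protein-coupled GABA-B receptor, while glycine opens its own chloride channel. In the cerebellum, Purkinje cells and the stellate and basket cells of the molecular layer use GABA, and many Golgi cells use both GABA and glycine.

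Reads in genes ranged from 22812075 to 33076111 in WT and from 36849747 to 40858310 in KO. Reads outside annotated exons made up 31.1% to 34.1% of a WT library and 16.8% to 18.2% of a KO library (exact permutation p = 0.1, two-sided, the smallest that 3 against 3 can give), and the part of this in the levels below was not tested. WT replicate 1 alone had high Xist (1054 CPM) and no Ddx3y reads, and Rn45s took 12.9% of the gene reads of WT replicate 2. Atoh7 itself had 42 to 72 reads in WT and 28 to 33 in KO, or 1.94 to 2.13 CPM in WT and 0.695 to 0.858 CPM in KO. Levels below are in CPM, counts scaled to library size with TMM factors, and a positive log2 fold change means higher in KO. The summed level of 10 photoreceptor markers was 1.42 to 2.07 CPM in WT and 1.07 to 1.33 CPM in KO, with Gngt1 at 0 reads in every library and Gnat1, Prph2, Nr2e3 and Crx among those at 0 in at least 1. The summed level of 9 Purkinje cell markers was 4133 to 5043 CPM in WT and 5808 to 6231 CPM in KO. The libraries thus held almost no photoreceptor transcripts and abundant Purkinje cell transcripts, against the fields that read retina. Of 5 microglial markers 3 were higher in KO at an edgeR adjusted p under 0.05, and of 5 endothelial markers 4 were lower. Of 8 oligodendrocyte markers 1 was higher and 1 lower. Over all genes tested, 13.4% were higher and 17.9% lower.

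All 3 genes that define a GABA-releasing neuron were higher in KO, by 17.3% to 28.6%. Over the 9 genes, 5 passed an edgeR adjusted p of 0.05, all of them higher, and 0 were lower. Of all 15846 genes tested, 31.3% passed, 13.4% as higher and 17.9% as lower. Since these 9 genes are well expressed, the share among the 4635 genes with a mean of at least 50 CPM is also given, and it was 47.4%, with 27.7% higher. The median log2 fold change was 0.21 over the 9 genes and 0.0006 over all genes tested. For 7 of the 9 genes the ranges of WT and KO were apart, 6 higher and Slc6a5 lower, against 44.8% of all genes tested. In bulk tissue, more cells of a type, more RNA per cell and less RNA from other cells cannot be told apart. CPM levels are relative to the whole library.

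**Figure D1:**
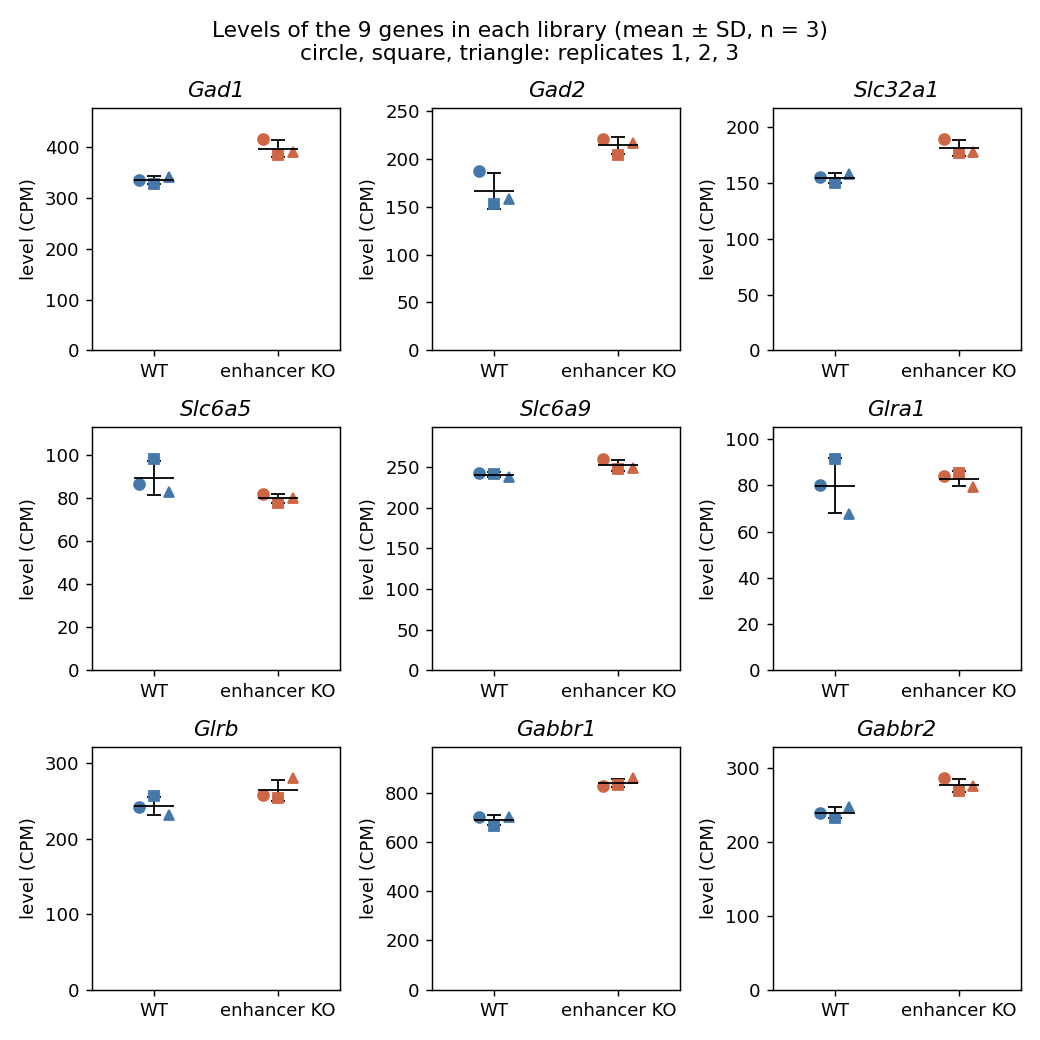
Level in CPM (vertical axes, from 0) of each of the 9 genes in the 3 WT and 3 KO libraries; symbols are replicates 1, 2 and 3, and black marks are the mean and SD. Gad1, Gad2, Slc32a1, Gabbr1 and Gabbr2 lay higher in all KO libraries than in any WT library, while Glra1 and Glrb overlapped.

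Gad1, which encodes the larger isoform of glutamate decarboxylase (GAD67), is on chromosome 2 (mm10) from 70553072 to 70602014, plus strand. Gad1 stood at 335, 326 and 342 CPM in WT replicates 1 to 3 and 415, 385 and 389.6 CPM in KO. All KO libraries lay above all WT libraries, with 334 ± 7.82 against 396 ± 16.3 CPM (SD, n = 3). This is a log2 fold change of 0.25 ± 0.0454 (SE) with an edgeR adjusted p of 0.00167, a rise of 18.6%.

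Gad2 encodes the smaller isoform (GAD65), which is associated with synaptic vesicles, and lies on chromosome 2 at 22622205 to 22693874, plus strand. Levels of Gad2 were 188, 153 and 158 CPM in WT and 220.4, 204 and 217 CPM in KO. WT replicate 1 stood above the other WT libraries, and the groups did not overlap. Gad2 had a log2 fold change of 0.36 ± 0.0735 (SE) with an edgeR adjusted p of 0.00578, a rise of 28.6%, the largest of the 9 genes. With WT replicates 2 and 3 left out together, a fit chosen after seeing the data in which WT replicate 1 stands alone, it was 0.21 (edgeR adjusted p = 0.0241). The summed level of 10 midbrain markers was 48.3 CPM in WT replicate 1, 29.1 and 34.8 CPM in WT replicates 2 and 3, and 38.1 to 49.3 CPM in KO. Of these markers 0 of the 9 tested passed in edgeR, DESeq2 or limma-voom, with 0 under an unadjusted edgeR p of 0.05, and Tfap2d had no reads in at least 1 library. The part of midbrain tissue in the Gad2 level was not tested.

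Slc32a1 encodes VGAT, the carrier that fills vesicles with GABA or glycine, and lies on chromosome 2 at 158610767 to 158615748, plus strand. It had 155, 149 and 158 CPM in WT and 189, 176 and 177 CPM in KO. The groups did not overlap. Slc32a1 had a log2 fold change of 0.23 ± 0.0428 (SE) with an edgeR adjusted p of 0.00173, a rise of 17.3%. Calls of Gad1, Gad2 and Slc32a1 held without each library in turn, with edgeR adjusted p from 7.53e-06 to 0.0278.

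These 3 genes mark GABA-releasing neurons and all passed, so the sequence just before their start sites is shown, from RefSeq promoter windows on GRCm38.p6, the build also called mm10. The windows matched 8 of the 9 genes by symbol. Each stretch is the longest part of the 250 bases before the RefSeq start that lies outside exons of protein-coding genes in GENCODE mouse release 21. Capitals mark matches to CANNTG, the E-box letters that basic helix-loop-helix factors are known to bind, searched on both strands and as the only motif. The Gad1 stretch is chr2:70561879-70562041, that of Gad2 chr2:22622077-22622204 and that of Slc32a1 chr2:158610508-158610757, all on the plus strand. The RefSeq start used for Gad1 lies inside the longer GENCODE span given above.
Gad1: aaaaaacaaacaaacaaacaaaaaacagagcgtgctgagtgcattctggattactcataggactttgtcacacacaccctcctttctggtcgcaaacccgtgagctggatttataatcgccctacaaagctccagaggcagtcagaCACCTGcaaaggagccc
Gad2: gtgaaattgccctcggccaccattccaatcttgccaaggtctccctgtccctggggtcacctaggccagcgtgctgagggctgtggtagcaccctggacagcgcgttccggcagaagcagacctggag
Slc32a1: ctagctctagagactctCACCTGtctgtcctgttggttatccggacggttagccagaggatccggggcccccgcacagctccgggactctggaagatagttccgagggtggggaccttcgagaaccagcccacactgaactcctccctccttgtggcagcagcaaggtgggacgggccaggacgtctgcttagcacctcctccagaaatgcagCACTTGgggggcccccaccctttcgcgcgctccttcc

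The Gad1 stretch of 163 bases held 1 match, the Slc32a1 stretch of 250 bases held 2, and the Gad2 stretch of 128 bases held 0. Of 32851 RefSeq promoter windows, the same stretch held a match in 52.1% for Gad1, 66.2% for Slc32a1 and 43.9% for Gad2. Matches of this kind are common, and a match is no evidence of binding. GC content was 46.6% in the Gad1 stretch, 62.5% in that of Gad2 and 62.4% in that of Slc32a1.

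Gad1 and Slc32a1 kept almost the same ratio in every library. Slc32a1 reads per Gad1 read were 0.462, 0.458 and 0.463 in WT and 0.455, 0.458 and 0.455 in KO. The difference in log2 ratio was -0.015 (-1.12 ± 0.00750 in WT and -1.13 ± 0.00538 in KO, SD, n = 3; exact two-sided permutation p = 0.2, adjusted over 6 ratios 0.4). Its SD within each group was below the 0.0202 to 0.0315 that counting error alone gives these reads. Over the 10309 other genes with a mean of at least 10 CPM, Slc32a1 was the nearest to Gad1 in pattern, with a root mean square difference of 0.00907 in centred log2 CPM over the 6 libraries. Axl followed at 0.0204 and Plekhb2 at 0.0225, and the median gene lay at 0.147. Gaps this close to counting error do not order those genes.

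Gad2 followed a different course among the WT libraries. Gad1 reads per Gad2 read were 1.79, 2.14 and 2.16 in WT and 1.88, 1.88 and 1.80 in KO. WT replicate 1 lay beside the KO libraries and the other WT libraries lay above them. The difference in log2 ratio was -0.12 (1.01 ± 0.153 in WT and 0.89 ± 0.0391 in KO, SD, n = 3; exact permutation p = 0.4, adjusted 0.48). For Slc32a1 against Gad2 the difference was -0.14 (exact permutation p = 0.3, adjusted 0.45). A larger rise of Gad2 than of Gad1 or Slc32a1 was not shown. Both ratios overlapped between WT and KO, and with 3 against 3 libraries no exact permutation p can fall below 0.1.

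Markers of the neurons that use GABA moved with these genes in part. Of 9 Purkinje markers, 6 rose and 0 fell, with a median log2 fold change of 0.41. Over all genes tested, 13.4% passed as higher and 17.9% as lower. Among genes with a mean of at least 50 CPM, which all 9 Purkinje markers reach, 27.7% were higher and 19.8% lower. Of 6 molecular layer interneuron markers, Lypd6 and Tfap2b rose and Ptprk fell, and their summed level was 371 to 403 CPM in WT and 379 to 425 CPM in KO. Of 4 Golgi cell markers, Sst rose and Grm2 fell, and the sum was 108 to 128 CPM in WT and 134 to 137 CPM in KO. All 9 granule neuron markers fell, with a sum of 2607 to 3189 CPM in WT and 1608 to 2039 CPM in KO. No marker of these 4 lists was at 0 in any library. The part of these cell types in the GABA gene levels was not tested. These markers were named with their values known, and Tfap2b lost its call without any single library except WT replicate 3 (edgeR adjusted p = 0.0552 to 0.0889). Grm2 did not pass with libraries scaled by size alone (-0.24, edgeR adjusted p = 0.0849).

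Neither glycine transporter gene passed the test. Slc6a5 encodes GlyT2, the transporter of glycinergic nerve terminals, and lies on chromosome 7 at 49910146 to 49963856, plus strand. Its level was 86.6, 98.2 and 82.8 CPM in WT and 82.0, 77.5 and 79.8 CPM in KO. Every KO library lay below every WT library, with 82.0 in the highest KO library close to 82.8 in the lowest WT library. The log2 fold change was -0.16 ± 0.0592 (SE; 95% interval -0.29 to -0.028; edgeR adjusted p = 0.0624) and did not pass. Without WT replicate 3 it passed (-0.21, edgeR adjusted p = 0.0284), and without WT replicate 2, where Slc6a5 was highest, it was -0.077 (edgeR adjusted p = 0.292). With libraries scaled by size alone it was -0.090 (edgeR adjusted p = 0.399).

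Slc6a9 encodes GlyT1, the glycine transporter of glia, and lies on chromosome 4 at 117834506 to 117875198, plus strand. Levels of Slc6a9 were 244, 242 and 238 CPM in WT and 261, 248 and 249 CPM in KO. The KO libraries were all above the WT libraries by a narrow margin. With 241 ± 2.94 against 253 ± 6.92 CPM (SD, n = 3), the log2 fold change of 0.066 ± 0.0390 (SE; 95% interval -0.019 to 0.15) did not pass (edgeR adjusted p = 0.224). When a trend over gene length and GC content was taken out of each library, Slc6a9 passed (0.15, edgeR adjusted p = 0.0182). In that fit the median log2 fold change of all genes tested was also higher, 0.0576 against 0.0006.

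Between the transporters, Slc6a5 reads per Slc6a9 read were 0.355, 0.406 and 0.348 in WT and 0.315, 0.313 and 0.320 in KO. Every KO ratio lay below every WT ratio, and this was the only one of the 6 ratios computed whose groups did not overlap. The difference in log2 ratio was -0.22 (-1.44 ± 0.12 in WT and -1.66 ± 0.0179 in KO, SD, n = 3; exact permutation p = 0.1, the smallest possible, adjusted 0.4), so the difference could not pass in this design. Of 9 Bergmann glia and astrocyte markers, which label the glia that carry GlyT1, 2 rose (13.4% of all genes tested) and 0 fell (17.9%). Among genes with a mean of at least 50 CPM, which all 9 reach, 27.7% were higher and 19.8% lower. The summed level of the 9 markers was 6475 to 6568 CPM in WT and 7539 to 7965 CPM in KO. Of them 0 were at 0 in any library. The part of glial content in the Slc6a9 level was not tested. Among the genes nearest in pattern to Slc6a5 were Mtif3 and Ctr9, at root mean square differences of 0.0116 and 0.0219 in centred log2 CPM over 6 libraries.

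**Figure D2:**
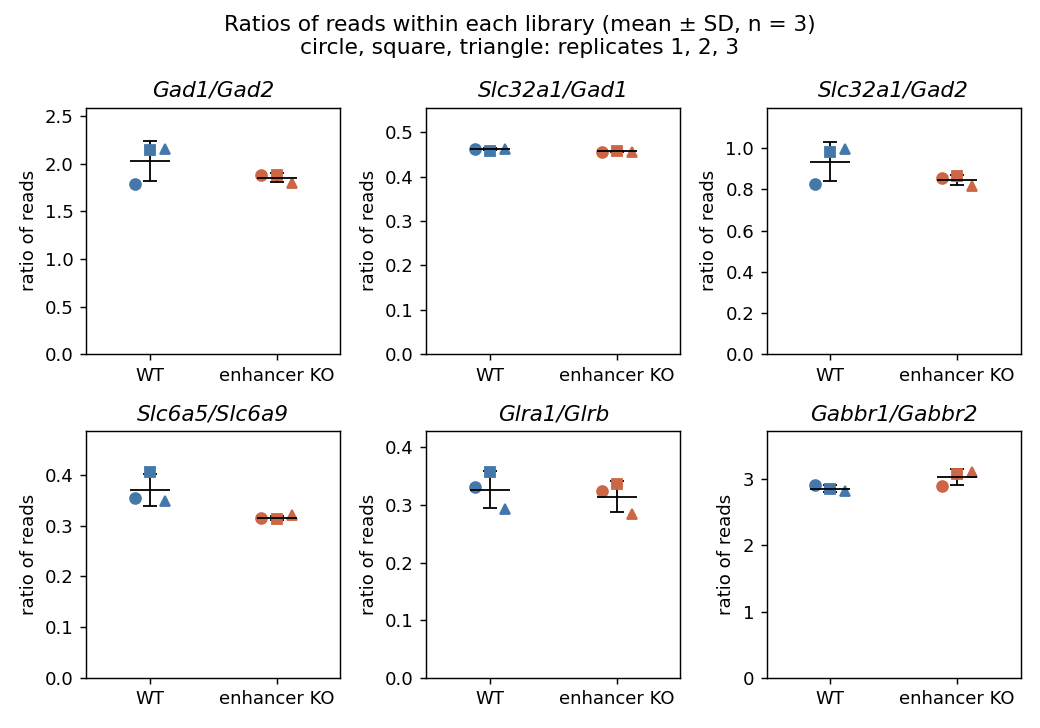
Ratio of reads of 2 genes within a library (vertical axes, from 0) for 6 pairs in WT and KO; symbols are replicates 1, 2 and 3, and black marks the mean and SD. Slc32a1/Gad1 stayed between 0.455 and 0.463 in all 6 libraries, and Slc6a5/Slc6a9 was lower in every KO library.

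Glycine receptor genes gave no call. Glra1 encodes the alpha 1 subunit, which binds glycine and is the main adult alpha subunit of the hindbrain and spinal cord, on chromosome 11 at 55514238 to 55608198, minus strand. Its levels were 80.2, 91.5 and 67.7 CPM in WT and 83.9, 85.5 and 79.4 CPM in KO. All KO values lay within the WT range. The log2 fold change of Glra1 was 0.060 ± 0.101 (SE; 95% interval -0.18 to 0.30; edgeR adjusted p = 0.699), and it was -0.047 without WT replicate 3 and 0.17 without WT replicate 2. The summed level of 13 brainstem markers was 117, 113 and 96.1 CPM in WT replicates 1 to 3 and 105, 119.9 and 134 CPM in KO replicates 1 to 3. WT replicate 3 was lowest in WT for both Glra1 and this sum, whereas KO replicate 3 was lowest in KO for Glra1 and highest for the sum. Of those markers 0 of 13 passed in edgeR, DESeq2 or limma-voom, with 1 under an unadjusted edgeR p of 0.05 (Isl1, named after its value was seen). All 13 had reads in every library, and their part in the Glra1 level was not tested.

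Glrb encodes the beta subunit, which ties the receptor to the scaffold protein gephyrin, on chromosome 3 at 80843599 to 80913660, minus strand. It had 242, 256 and 231 CPM in WT and 258, 255 and 279.9 CPM in KO, with overlapping groups. Its log2 fold change was 0.12 ± 0.0504 (SE; 95% interval 0.0095 to 0.23; edgeR adjusted p = 0.0936). Glrb passed with reads of both strands counted (edgeR adjusted p = 0.0457) and once the length and GC trend was taken out (0.17, edgeR adjusted p = 0.0146). With that trend taken out, the median log2 fold change of all genes tested was 0.0576, against 0.0006. The Glra1 to Glrb ratio of reads ranged from 0.292 to 0.357 in WT and from 0.284 to 0.336 in KO (exact permutation p = 0.6, adjusted 0.6).

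Both GABA-B receptor genes were higher. The receptor works as a pair in which the GABBR1 subunit binds GABA and the GABBR2 subunit couples to the G protein. Gabbr1 lies on chromosome 17 at 37045966 to 37075067, plus strand, and had 699, 664 and 699 CPM in WT and 828, 831 and 857 CPM in KO. The groups were well apart. The log2 fold change of Gabbr1 was 0.29 ± 0.0418 (SE; edgeR adjusted p = 0.000356), a rise of 22.1%, the smallest p of the 9 genes. Spcs3, Terf2ip and Tollip were nearest to it in pattern, at root mean square differences of 0.0139, 0.0155 and 0.0159 over the 6 libraries.

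Gabbr2 spans 329.6 kb of chromosome 4 at 46662305 to 46991873, minus strand, most of it intron. Its level was 239.7, 233 and 248 CPM in WT and 286, 269 and 276 CPM in KO, without overlap. The log2 fold change of Gabbr2 was 0.21 ± 0.0424 (SE; edgeR adjusted p = 0.00323), a rise of 15.4%. Calls of Gabbr1 and Gabbr2 held without each library in turn, with edgeR adjusted p from 0.000307 to 0.0194. Gabbr1 reads per Gabbr2 read were 2.92, 2.85 and 2.82 in WT and 2.89, 3.09 and 3.11 in KO, and the groups overlapped (difference in log2 ratio 0.082; exact permutation p = 0.2, adjusted 0.4).

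**Figure D3:**
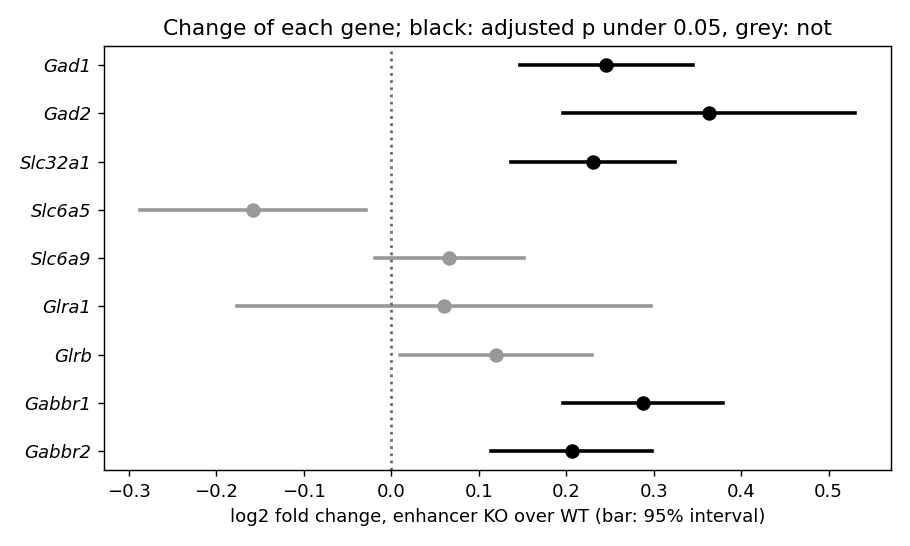
Log2 fold change of KO over WT (horizontal axis) for the 9 genes, with 95% intervals as bars; black marks an edgeR adjusted p under 0.05. Gad2 was highest at 0.36 with a wide interval, Slc6a5 was lowest at -0.16, and Glra1 had an interval from -0.18 to 0.30.

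Per kilobase of exon (RPKM, over the union of GENCODE exons), Gabbr1 was the most abundant of the 9 in both groups, at 85.5 to 90.04 RPKM in WT and 107 to 110.4 RPKM in KO. In WT it was followed by Slc32a1 (53.4 to 56.5 RPKM) and Glrb (49.7 to 55.0 RPKM), which overlapped. Then came Slc6a9 (46.3 to 47.4 RPKM), Gad1 (42.7 to 44.7 RPKM) and Gabbr2 (34.9 to 37.1 RPKM). Neighbours among these did not overlap. Glra1 at 28.0 to 37.9 RPKM overlapped with Gabbr2 above it and with Gad2 (26.0 to 31.9 RPKM) below it. Slc6a5 was lowest at 11.5 to 13.6 RPKM, below every other gene in every library. In KO, Gad1 (50.4 to 54.3 RPKM) and Slc6a9 (48.2 to 50.7 RPKM) overlapped, and Gad2 (34.8 to 37.5 RPKM) overlapped with Glra1 (32.9 to 35.4 RPKM). The isoforms in use were not measured, so the exon lengths may exceed those of the transcripts present.

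**Figure D4:**
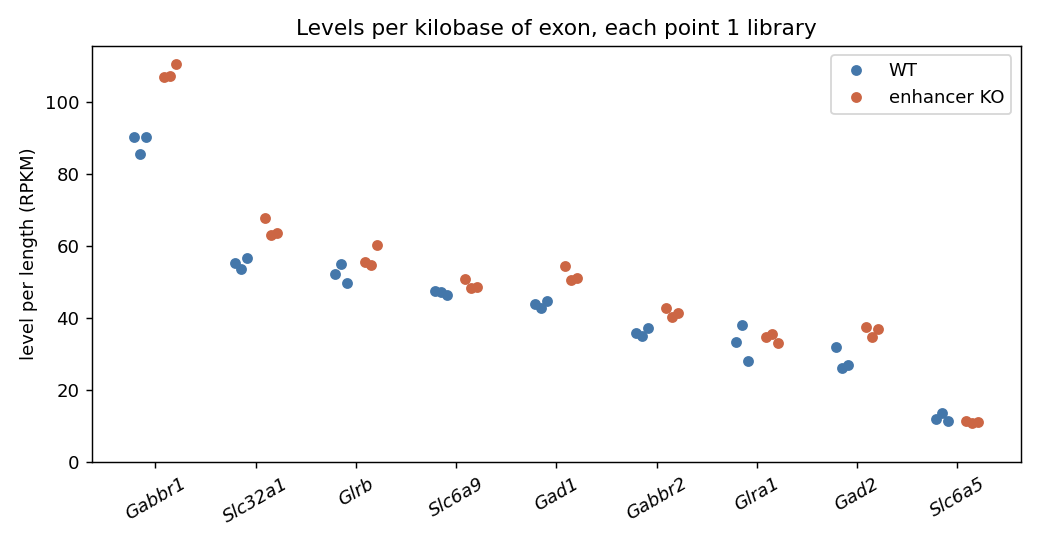
Level per kilobase of exon in RPKM (vertical axis, from 0) of the 9 genes, ordered by their mean, with 1 point per library. Gabbr1 stood above all others, at 85.5 RPKM or more, and Slc6a5 below all others, at 13.6 RPKM or less.

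Around these 9 genes, the wider GABA and glycine pathway held more higher than lower calls, and most lower calls depended on the scaling. Of 46 other genes in 7 lists, 16 were higher and 7 lower, with a median log2 fold change of 0.12. With libraries scaled by size alone 17 were higher and 2 lower, beside 2165 higher and 1689 lower of all 15846 genes tested. With the length and GC trend taken out 21 were higher and 3 lower, beside 3340 higher and 1953 lower of 15687. The median log2 fold change of all genes tested was 0.0628 and 0.0576 in these fits, in turn, against 0.0006 with TMM scaling alone. Without KO replicate 1 or 2, 14 of the 46 passed, beside 3871 of 15976 and 3652 of 15978 of all genes tested. With all libraries and TMM scaling alone, 13.4% of all genes tested were higher and 17.9% lower. Among genes with a mean of at least 50 CPM, which not all of the 46 reach, 27.7% were higher and 19.8% lower.

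GABA uptake and breakdown genes had 2 of 6 members higher and 0 lower. Aldh5a1, the enzyme of the last step of GABA breakdown, rose from 152 ± 7.34 to 176 ± 0.267 CPM (SD, n = 3), with an edgeR adjusted p of 0.00322. Slc6a11, an astrocytic GABA transporter, had a log2 fold change of 0.29 and a bare call (edgeR adjusted p = 0.0487) that was lost without any 1 library except WT replicate 1 (0.102 to 0.146). The summed level of astroglial markers was higher in every KO library, as given above, and its part was not tested.

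Genes that supply glutamate for GABA synthesis had 2 of 7 members higher and 2 lower. Glul, the glutamine synthetase of astroglia, rose from 969 ± 73.6 to 1245 ± 40.5 CPM, and the neuronal glutamine carrier Slc38a1 from 457 ± 5.73 to 540.1 ± 6.58 CPM (SD, n = 3). Gls2, a glutaminase gene, fell from 16.8 ± 1.05 to 14.3 ± 0.169 CPM. The edgeR adjusted p was 0.000464 for Glul, 0.000944 for Slc38a1 and 0.0291 for Gls2. Leaving out WT replicate 1 or 2 or KO replicate 1 or 2 ended the Gls2 call (0.0513 to 0.108). Gls2 also did not pass with the length and GC trend taken out (-0.17, edgeR adjusted p = 0.0851), or with libraries scaled by size alone (-0.17, edgeR adjusted p = 0.234).

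All 3 genes for pyridoxal phosphate, the cofactor of glutamate decarboxylase, were higher. Log2 fold changes were 0.24 for Pdxp, which removes the phosphate of the cofactor, and 0.20 for Pdxk, a kinase that helps to make it (edgeR adjusted p = 0.00437 and 0.0246). The Pdxk call was lost without WT replicate 2 or 3 or KO replicate 1 (0.0689 to 0.0931).

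Serine and glycine metabolism had 3 of 9 members higher and 1 lower. Psat1 and Psph of serine synthesis had log2 fold changes of 0.18 and 0.26, and Gcsh of the glycine cleavage system had 0.30 (edgeR adjusted p = 0.00376, 0.0282 and 0.00451). Shmt2, which makes glycine from serine in mitochondria, was lower at -0.23 (edgeR adjusted p = 0.0117). The Psph call was lost without WT replicate 1 or 3 or KO replicate 2 or 3 (0.0503 to 0.102), and Shmt2 without WT replicate 3 or KO replicate 1 (0.0596 and 0.0555). Shmt2 also did not pass with libraries scaled by size alone (-0.16, edgeR adjusted p = 0.186) or with the length and GC trend taken out (-0.16, edgeR adjusted p = 0.0673).

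The other glycine receptor alpha subunits had 0 of 3 members called by edgeR, DESeq2 or limma-voom, and 0 under an unadjusted edgeR p of 0.05. Glra2 was at 18.3 CPM in WT and 20.6 CPM in KO, and Glra3 at 6.59 and 9.26 CPM. Glra3 passed without WT replicate 1 (log2 fold change 0.85, edgeR adjusted p = 0.00266).

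At the inhibitory postsynapse, 1 of 5 genes was higher and 2 lower. The synaptic adhesion gene Nlgn2 rose from 307 ± 13.5 to 344 ± 5.84 CPM. Gphn, which encodes the gephyrin scaffold that holds Glrb, fell from 93.2 ± 5.87 to 81.7 ± 3.47 CPM, and the chloride importer Slc12a2 from 322 ± 11.5 to 279 ± 7.76 CPM (SD, n = 3). The edgeR adjusted p was 0.0158 for Nlgn2, 0.0171 for Gphn and 0.00369 for Slc12a2. Nlgn2 lost its call without KO replicate 1 or 2 (0.0572 and 0.0524), and Gphn without WT replicate 2 or KO replicate 1 or 2 (0.0714 to 0.0990). With libraries scaled by size alone neither Slc12a2 (-0.14, edgeR adjusted p = 0.178) nor Gphn (-0.12, edgeR adjusted p = 0.234) passed, and Slc12a2 did not pass with the length and GC trend taken out (-0.088, edgeR adjusted p = 0.148).

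GABA-B receptor partners had 5 of 13 members higher and 2 lower. Kctd12, an auxiliary subunit that shapes the receptor's response, rose from 276 ± 19.8 to 356 ± 24.4 CPM, and Ajap1, a protein that binds the receptor from outside the cell, from 24.1 ± 0.640 to 29.6 ± 2.16 CPM (SD, n = 3). Kcnj6, a subunit of the GIRK potassium channel that the receptor opens, fell from 36.9 ± 0.360 to 27.9 ± 1.04 CPM (edgeR adjusted p = 0.000197), the smallest p of the 46. The G protein gene Gnai2 had a log2 fold change of 0.16 (edgeR adjusted p = 0.0123), and 0.0613 without KO replicate 2. Gnai1 and the weakly expressed Kcnj5 were the other higher members and Kcnj3 the other lower one, named after their values were seen (edgeR adjusted p = 0.0479, 0.0483 and 0.0360). Each of these calls was lost without some single libraries: Kcnj3 without WT replicate 2 or KO replicate 1 or 2 (0.133 to 0.199), Kcnj5 without any except KO replicate 1 (0.0511 to 0.212) and Gnai1 without WT replicate 3 or any KO replicate (0.0773 to 0.183). Kcnj3 was also lost with libraries scaled by size alone (-0.091, edgeR adjusted p = 0.392) and with the length and GC trend taken out (-0.14, edgeR adjusted p = 0.0603). The receptor subunits and the channel subunit Kcnj6 thus moved in opposite directions in these libraries.

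**Figure D5:**
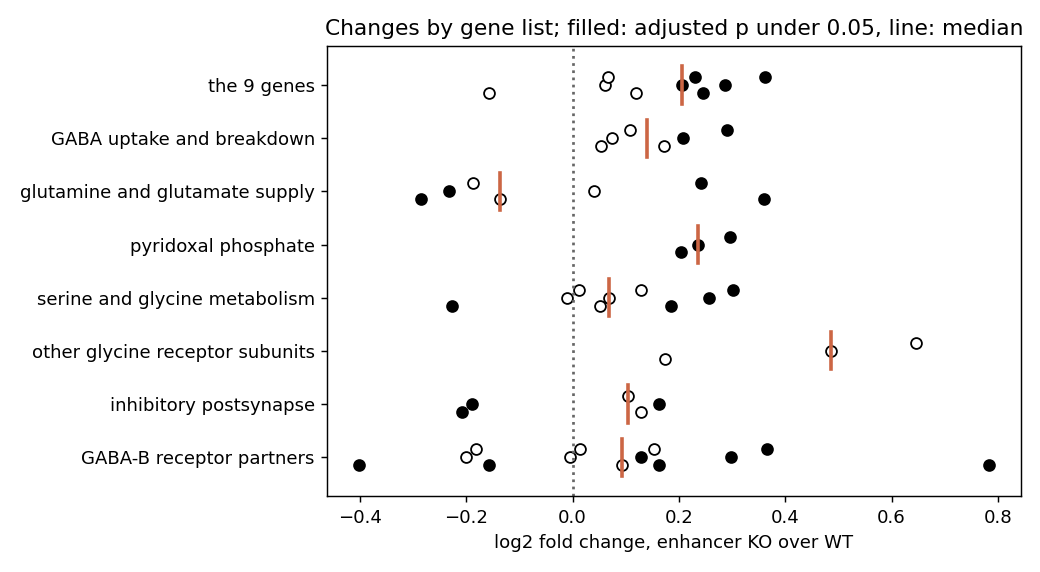
Log2 fold change of KO over WT (horizontal axis) for the 9 genes and the 46 others by list; filled points have an edgeR adjusted p under 0.05 and the coloured lines are list medians. Medians ran from -0.14 for glutamine and glutamate supply to 0.49 for the other glycine receptor subunits, where 0 of 3 passed.

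Among all genes called higher, the median rise was 17.1%. The 5 called among the 9, from 15.4% to 28.6%, lay around that value. With a minimum fold of 1.2 in the edgeR test, 0 of the 9 genes passed, against 6.25% of all genes tested. The genes that passed were 83 higher and 908 lower. Without that minimum 7 of the 9 were under an unadjusted edgeR p of 0.05, against 41.3% of all genes tested. DESeq2 and limma-voom each called 5 of the 9, against 28% and 31.5% of all genes tested.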

How the data were processed

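Reads were trimmed with Trimmomatic and aligned with STAR to mm10, per the submitters' processing notes; their versions, the annotation and the counting settings were not given in the sources used here. As deposited, the values are raw read counts per gene for each strand setting, and the authors applied no normalization to them that the files show. Column 4, for 1 strand, was used: 1.62% to 1.88% of stranded gene reads lay on the other strand. The 4 rows that name no gene, 35.9% to 61.9% of reads, stayed out of library sizes and tests. Replicate libraries all differed by more than sampling noise.

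Genes were filtered by filterByExpr, scaled by TMM and tested with edgeR 4.0.16 (R 4.3.3; quasi-likelihood, robust, two-sided), with Benjamini-Hochberg adjustment over all 15846 genes and a threshold of 0.05. SEs come from the fold change and the F statistic. Ratios of reads used a pseudocount of 0.5 and exact permutation tests. Lengths and positions are from GENCODE mouse release 21 (mm10). The lowest count of the 9 genes in any library was 1873 reads, a counting error of 2.31%. Centred log2 CPM used a prior count of 2.

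The genes and lists were chosen with earlier results of these data known. Named were the 9 genes, up to 4 called members of each list by smallest p (the 2 most abundant members where none passed), and the 3 genes nearest in pattern to Gad1, Slc6a5 and Gabbr1, except a few that are not reported here. Alternatives tried were scaling by RLE or by library size only, other filters, a replicate block, a minimum fold, a threshold of 0.1, unstranded counts, removal of Rn45s, DESeq2 1.42.0, limma-voom (limma 3.58.1), removal of a trend over GC content, spliced length and intron length (mgcv 1.9.3), and leaving out libraries. The tests were checked on simulated counts.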

Additional observations from a re-analysis of the deposited data

How the results depend on the processing

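Of the 9 genes, Gad1, Gad2, Slc32a1, Gabbr1 and Gabbr2 kept their call and direction under 18 of 19 alternatives each. The exception was a minimum fold of 1.2, under which 991 of all genes passed, 83 higher and 908 lower. Under it 0 of the 9 and 1 of the 46 pathway genes passed. The threshold of 0.1, 1 of the 19 alternatives, could not end a call made at 0.05. Pathway calls numbered 23 with all libraries and 14 to 25 without each in turn. With WT replicates 2 and 3 left out together, chosen after seeing the data, 3129 genes and 12 pathway genes passed, where the single WT library left is taken to vary as KO does. Higher genes made up 42.7% of all calls, 56.2% with library size alone and 63.1% with the gene structure trend removed; the 5 calls were higher in each. Of the 7 lower pathway calls, those of Gls2, Shmt2, Slc12a2, Gphn and Kcnj3 were lost with library size alone, and those of Gls2, Shmt2, Slc12a2 and Kcnj3 among others with the trend removed. The cause was not tested. Slc6a5 passed with a filter of 10 CPM (0.0424), and Slc6a5 and Glrb at a threshold of 0.1. Glra1, at 0.060, ran from -0.047 without WT replicate 3 to 0.17 without WT replicate 2. The Glra1 to Glrb log2 ratio difference of -0.053 became 0.013 without WT replicate 2, 0.020 without KO replicate 3 and -0.13 without WT replicate 3. Over all genes tested, same-numbered libraries did not deviate together (correlations of deviations 0.053, -0.039 and -0.080). With 3 libraries per group, these correlations cannot show whether the numbers pair libraries. With a replicate block 4596 genes, 5 of the 9 and 21 pathway genes passed. Under it Glra3 gained a call, and Kcnj3, Kcnj5, Gnai1 and Tfap2b lost theirs.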

Other observations

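Several of the 9 genes overlap genes on the opposite strand in GENCODE. Exons of Slc6a9 share 1429 bases with Ccdc24, exons of Slc32a1 share 697 bases with Gm14205, and exons of Glra1 share 141 bases with Gm12236. Reads on the opposite strand were 0.0528% to 0.268% of the stranded reads of the 9 genes, and Slc6a9 lost 4.72% of its reads when strands were ignored. The Slc6a9 level therefore depends on strand more than that of the other 8, while its call did not change with unstranded counts (edgeR adjusted p = 0.117).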
